A study of Mus musculus with 18 samples.

Results

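A set of 31 genes was well measured in the lacrimal glands (LGs) of BALB/c mice and close to absent from those of NOD.H-2b mice. Levels are in CPM, the count of a gene relative to the summed counts of all genes in that mouse, scaled alike in every mouse so that depth cancels. A gene was taken when its lowest CPM over the 9 BALB/c mice was at least 0.5 and at least 8 times its highest CPM over the 9 NOD.H-2b mice. Symbols starting with H2-, Klr, Ig, Scgb, Esp, Cyp, Snor or Zfp9 were left out, which removed H2-Ea-ps, H2-Q1 and Esp34. The rule was met by 31 of the 54232 genes in the table and by 0.241% of the 12876 genes that reached the floor of 0.5 CPM in all BALB/c mice. The members were thus chosen by the CPM values of both strains, and their strain difference is described here without a test. Of the same 12876 genes, 4.57% had all BALB/c mice above all NOD.H-2b mice by any margin.

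Each of the 18 samples was 1 LG of 1 male mouse, with 3 mice in each of 6 groups: BALB/cJ controls and NOD.H-2b animals, each aged 2, 4 or 6 months (2M, 4M and 6M). NOD.H-2b is an inbred line with the NOD background. A segment of its major histocompatibility complex (MHC, called H2 in mouse) comes from C57BL/10SnJ and is of the H2b haplotype. The line develops spontaneous inflammation of the exocrine glands, and the labels name no treatment or transgene in either strain. RNA was taken from the whole gland cleared of its capsule, so fewer cells of a type and less RNA per cell cannot be told apart. The totals ranged from 49480781 to 103936830 counts per mouse. A list of 9 epithelial genes, among them the water channel gene Aqp5, summed to 933 to 1377 CPM over the BALB/c mice and to 992 to 1970 CPM over the NOD.H-2b mice, and 4 genes of salivary gland summed to at most 0.235 CPM in any mouse. The summed CPM of 4 B cell genes ran from 0.0316 to 1.67 in BALB/c and from 0.774 to 303 in NOD.H-2b.

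Inbred strains carry different fixed alleles, gene copy numbers and insertions of copied mRNA, and a gene can be expressed in one strain and lost, altered or unreadable in another. Processed pseudogenes are intronless copies of mRNAs inserted elsewhere in the genome, and unprocessed pseudogenes are disabled duplicates of genes that keep an exon structure. Reads of such copies resemble those of the parent gene, so a count for one and the other rests on a few differing bases. The reads here were aligned to the GRCm38 genome, which is of the C57BL/6J strain and of neither strain studied. The MHC is an exception in part, since a segment of it in the NOD line comes from another C57BL strain. In that segment the reference can therefore be closer to the NOD line than to BALB/c.

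The largest block of signal came from 3 related unprocessed pseudogenes on chromosome 6, Gm34224, Gm34314 and Gm5886. Their annotated transcripts, of 364, 367 and 2613 bases, were 93.1% (Gm34224 and Gm34314), 90.9% (Gm34224 and Gm5886) and 89.4% (Gm34314 and Gm5886) identical over the aligned bases. The stretch of 100 bases with the fewest differences among the 3 transcripts is given to show how alike they are, with the 3 columns that differ in capitals. It lies in GRCm38 at chr6:133599128-133599227 on the plus strand for Gm34224, at chr6:133617316-133617415 on the minus strand for Gm34314 and at chr6:133765510-133765609 on the minus strand for Gm5886.
Gm34224: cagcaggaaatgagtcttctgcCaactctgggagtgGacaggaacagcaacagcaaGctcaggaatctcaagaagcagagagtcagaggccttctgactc
Gm34314: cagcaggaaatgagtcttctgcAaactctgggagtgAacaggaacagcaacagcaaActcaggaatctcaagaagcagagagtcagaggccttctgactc
Gm5886: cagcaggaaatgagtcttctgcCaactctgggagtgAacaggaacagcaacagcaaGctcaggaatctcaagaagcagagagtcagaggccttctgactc

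Over the whole best alignment, none of the 274 windows of 75 bases, the read length, was free of differences between Gm34224 and Gm34314, and 9.31% of the 290 were between Gm34224 and Gm5886.

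Another group of members had a parent gene elsewhere that differed from it by a few bases. The sites printed here are 29 bases of the member and of its parent with the differing base in capitals, and they were chosen because the rest of the aligned transcript was the same or nearly so. Substitutions give the base of the parent, the position counted from 1 at the 5′ end of the member's transcript, and the base of the member. Atp6v0c-ps2, a processed pseudogene of the proton pump subunit gene Atp6v0c, differed by T111C alone over 465 bases, at chr6:37806182-37806210 on the plus strand. Hba-a2, an alpha globin gene, differed from its tandem duplicate Hba-a1 by C416T alone over 538 aligned bases, at chr11:32297146-32297174 on the plus strand. Gm15772, a processed pseudogene of the ribosomal protein gene Rpl26, differed by 2 substitutions over 438 bases, of which C177T is shown, at chr5:3236593-3236621 on the plus strand.
Atp6v0c-ps2: ggcacagccaagagCggcactggcatcgc
Atp6v0c: ggcacagccaagagTggcactggcatcgc
Hba-a2: catgcctctctggaTaaattccttgcctc
Hba-a1: catgcctctctggaCaaattccttgcctc
Gm15772: gttcaggttgttcgTggacactacaaagg
Rpl26: gttcaggttgttcgCggacactacaaagg

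The 31 genes spanned more than 3 orders of magnitude in BALB/c and were low in every NOD.H-2b mouse. Their mean CPM in BALB/c ran from 0.967 (Gm6475) to 3179 (Gm34224), with a median of 5.81 against 10.6 for all genes at the floor. In BALB/c, 14 members averaged at least 10 CPM and 4 more than 100 CPM. In NOD.H-2b, 2 members, Uox and 6820402A03Rik, had no count in any of the 9 mice, and 4 members had at most 3 counts in every mouse. In all, 19 members had at most 10 counts in every NOD.H-2b mouse, and only Gm12886 and Gm34224 averaged 1 CPM or more. Among the 29 members with any count, the ratio of the BALB/c to the NOD.H-2b mean ran from 19.4 (Gm6222) to 2451 (Gm1330) with a median of 77.5, or 78.7 with Uox and 6820402A03Rik at their lower bounds.

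**Figure D1:**
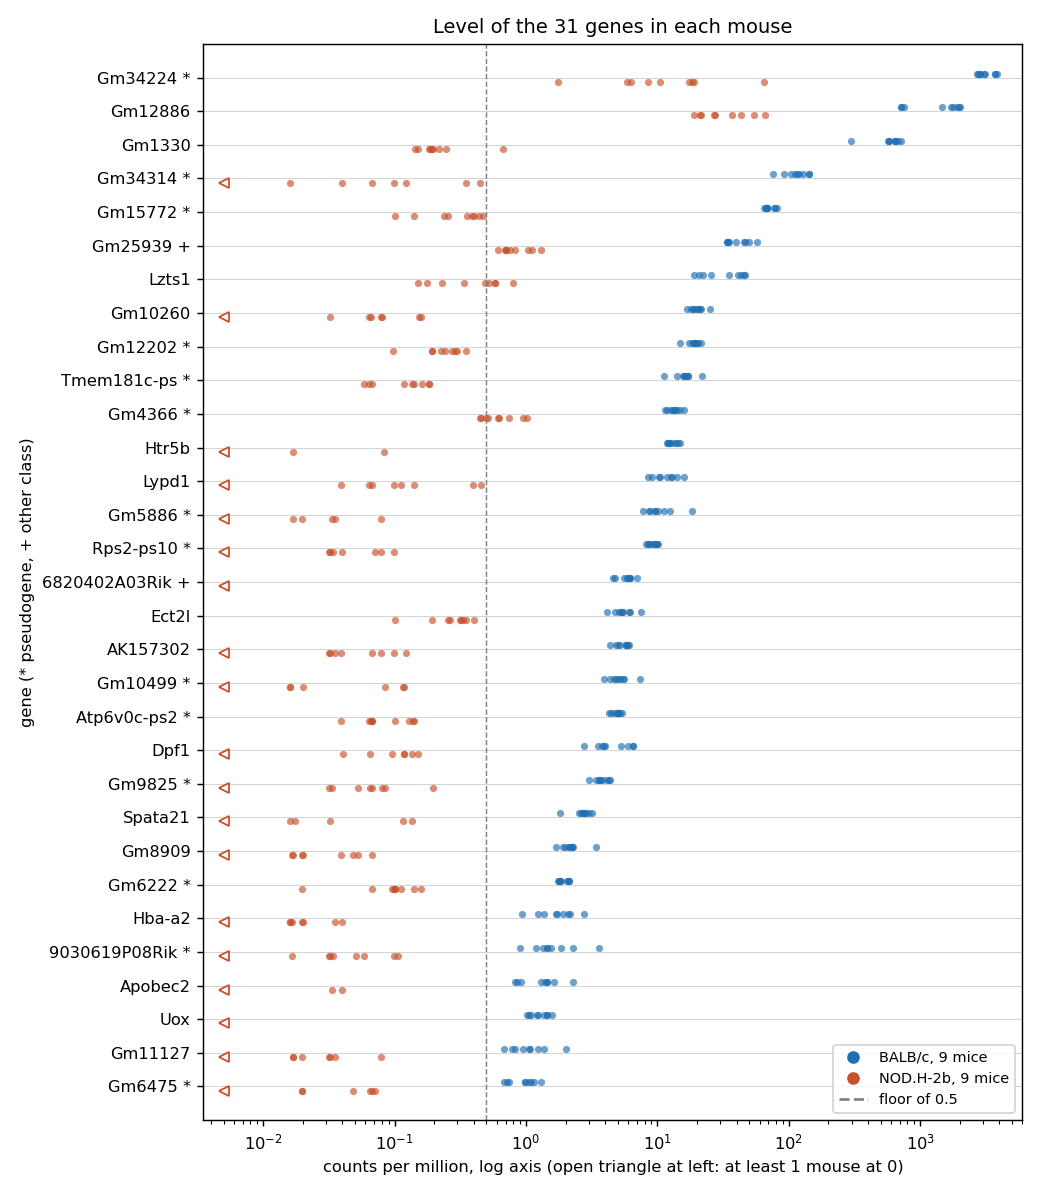
CPM of the 31 genes on a log axis, with a point for each of 9 BALB/c (blue) and 9 NOD.H-2b (red) mice and an open triangle where at least 1 mouse had no count. Every BALB/c point lies right of the 0.5 CPM floor, and 2 genes, Uox and 6820402A03Rik, have only the triangle in NOD.H-2b.

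Gm34224 had a lowest, median and highest CPM of 2718, 3084 and 3830 in BALB/c. In NOD.H-2b the same values were 1.75, 10.5 and 64.99, and the highest came from the second 6M mouse. The highest of the NOD.H-2b mice was thus many times the lowest, and all of them lay under the lowest BALB/c mouse. Gm34314 went from 75.6, 116 and 143 CPM in BALB/c to 0, 0.0678 and 0.45 in NOD.H-2b, where its highest value came from that same 6M mouse. Gm5886 had 7.74, 9.67 and 18.3 CPM in BALB/c, against at most 0.0783 for NOD.H-2b, again in that mouse, with 4 mice at 0. So the 3 related genes had their highest NOD.H-2b value in a single mouse. Without it the ratio of means was 292 in place of 188 for Gm34224 and 816 in place of 526 for Gm5886.

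Gm1330, a protein-coding gene on chromosome 2 (GRCm38, 148990343 to 149003251, minus strand), had a lowest, median and highest CPM of 299, 637 and 719 in BALB/c. The low value was that of the third 6M mouse, and the other BALB/c mice lay at 568 or above. In NOD.H-2b the values were 0.144, 0.193 and 0.665, from 125 counts in all 9 mice. The ratio of means was 2451, with a 95% exact Poisson interval of 2039 to 2919 that covers counting error only. It was the largest ratio of the 29 that could be formed.

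Gm12886, a protein-coding gene on chromosome 4 (121414735 to 121423099, minus strand), was the member with the highest level left in NOD.H-2b. It had 712, 1730 and 1992 CPM in BALB/c as lowest, median and highest, and 19.1, 27.6 and 66.5 CPM in NOD.H-2b. All 3 low BALB/c values were those of the 2M mice. The gene sits between its relatives Gm12888 and Gm12887, which are described with their promoters further on.

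By gene class, pseudogenes made up a far larger share of the members than of the genes from which they were drawn. Of the 31 members, 15 were annotated as protein-coding (48.4%), 14 as pseudogenes (45.2%) and 2 as another class, the snRNA gene Gm25939 and 6820402A03Rik, a model whose class is still to be experimentally checked. Among the 12876 genes at the floor, 88.2% were protein-coding and 1.96% pseudogenes. The opposite rule, with the lowest NOD.H-2b CPM at least 8 times the highest of BALB/c, was met by 60 of 13731 genes (0.437%), of which 53.3% were protein-coding and 35% pseudogenes. Pseudogenes thus made up a larger share than at the floor in both directions. Of the 14 pseudogenes, 7 were processed (2 of them transcribed) and 7 unprocessed (3 transcribed). Symbols of the provisional form starting with Gm made up 16 of the 31 (51.6%), against 8.65% of the genes at the floor.

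Among the members with a gene name of known function, receptors, enzymes and regulators were single genes scattered over the genome. Htr5b, a serotonin receptor (chromosome 1, 121509842 to 121528465), had 11.9, 12.6 and 14.9 CPM as lowest, median and highest in BALB/c. In NOD.H-2b 7 of 9 mice had no count for it, and the other mice had 1 and 5 counts, for a ratio of 1176 that rests on 6 counts. The 5 counts were those of the first 4M mouse, and without it the ratio was 6196, with a 95% exact Poisson interval of 1057 to 232668 from the 1 count left. Lypd1, a membrane-anchored protein of the Ly6 family that acts on nicotinic acetylcholine receptors (chromosome 1, 125867622 to 125913101), had 8.47, 11.9 and 15.9 CPM in BALB/c and 0, 0.0998 and 0.458 in NOD.H-2b. These genes are on the same chromosome but more than 1 Mb apart. Lzts1, which encodes a leucine zipper protein described as a tumor suppressor (chromosome 8, 69132669 to 69184225), had 19.1, 35.3 and 46.8 CPM in BALB/c and 0.152, 0.489 and 0.793 in NOD.H-2b. All 9 NOD.H-2b mice had at least 9 counts of Lzts1, so the gene was low and not absent.

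Uox, the enzyme that degrades urate in mouse (chromosome 3, 146570426 to 146632305), had 1.02, 1.24 and 1.59 CPM in BALB/c, from 53 to 142 counts per mouse. With no count in any NOD.H-2b mouse, its level was at least 217-fold lower there, taking 3 counts over the 9 mice as the floor. On the same floor 6820402A03Rik, with 4.59, 5.98 and 7.00 CPM in BALB/c, was at least 989-fold lower. Dpf1, a subunit of the neuronal chromatin remodeling complex (chromosome 7, 29303951 to 29318243), had 2.76, 4.01 and 6.57 CPM in BALB/c, against at most 0.15 for NOD.H-2b. Spata21, named for spermatogenesis, and Ect2l, named for its likeness to Ect2, had means of 2.69 ± 0.382 and 5.54 ± 0.971 CPM in BALB/c (SD, n = 9). Their means in NOD.H-2b were 0.0353 ± 0.0528 and 0.281 ± 0.0906 CPM, so Ect2l kept a trace in every mouse and Spata21 was at 0 in 4 of them. The ratio of means for Spata21 was 76.3, and 118 without the first 6M mouse of NOD.H-2b.

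Apobec2, a muscle protein of the cytidine deaminase family (chromosome 17, 48419231 to 48432930), had 0.829, 1.39 and 2.26 CPM in BALB/c and 4 counts in total in NOD.H-2b, split evenly between the first 4M and the third 6M mouse. The ratio of means was 165, and 271 or 322 without either mouse, with intervals of 83.6 to 2494 and 85.4 to 2548 from the 2 counts left. A muscle marker moved with it. Ckm, the muscle creatine kinase, was at 0.23 to 1.22 CPM in BALB/c and 0 to 0.123 CPM in NOD.H-2b. The other 2 genes of the muscle list were near 0 in both strains, with Acta1 at 0 to 0.0298 and 0 to 0.0783 CPM and Myh4 at 0 over BALB/c, against a highest NOD.H-2b value of 0.0166. The list summed to 0.249 to 1.22 CPM in BALB/c and to 0 to 0.176 CPM in NOD.H-2b, and its part in the Apobec2 difference was not tested.

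Close copies of the members were looked for by sequence, and most of the copies with a clear level were higher in NOD.H-2b. A member was said to have a close copy when its best-scoring match among the transcripts of other genes covered at least 50% of its length at 90% identity or more. This was so for 15 members, of which 10 were pseudogenes, 4 protein-coding and 1 an snRNA. The same share over all genes at the floor was not computed, so the count is not read as a trait of the members. For 3 of the 15, the chromosome 6 genes, the closest copy was another member. Of the other 12 copies, 7 were higher in every NOD.H-2b mouse than in any BALB/c mouse, where 21.2% of the genes with at least 0.5 CPM in all NOD.H-2b mice were. Another copy was higher in BALB/c, and 4 overlapped. By TMM factors the counts were 6, 1 and 5, since the Eef1g ranges then overlapped. CPM by column sum sits higher in NOD.H-2b for the typical gene: the median log2 ratio of NOD.H-2b to BALB/c means was 0.22 by column sum and -0.04 by TMM over 13548 genes averaging at least 1 CPM.

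Gm15772 and Rpl26 showed the widest difference in opposite directions. Gm15772 had 71.0 ± 6.05 and 0.309 ± 0.131 CPM in BALB/c and NOD.H-2b, while Rpl26, a protein of the large ribosomal subunit, had 12.3 and 116 CPM. Rpl26 is thus listed 9.42-fold higher in NOD.H-2b, and the ranges of 9.87 to 14.7 and 103 to 127 CPM were far apart. Summed, the pair held 83.3 ± 7.03 CPM in BALB/c, against 116 ± 8.75 CPM for NOD.H-2b (SD, n = 9). Gm15772 made up 85.3% of the sum in BALB/c, so in that strain most counts of this pair stood at the pseudogene. The bases that separate the pair are few, and 58.8% of the 364 windows of 75 bases held none of them. A window stands for a single read, and the reads were paired, so a read pair can hold a difference where a window holds none.

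The parents of other members were also higher in NOD.H-2b. Atp6v0c was at 4.88 and 14.0 CPM in BALB/c and NOD.H-2b, beside Atp6v0c-ps2 at 4.87 and 0.0905, and the sums were 9.75 and 14.1 CPM. Rnps1, a splicing factor gene, was at 5.18 and 15.9 CPM beside Gm9825 at 3.77 and 0.0679, with sums of 8.96 and 16.0 CPM. Eef1g, a translation elongation factor gene, was at 63.0 and 102 CPM beside Gm4366 at 13.4 and 0.651. Both ribosomal protein genes of the small subunit followed, with Rps18 at 64.9 and 143 CPM beside Gm10260 (20.1 and 0.0703) and Rps2 at 50.6 and 165 CPM beside Rps2-ps10 (9.23 and 0.0429). Hba-a1 was at 5.11 and 19.8 CPM beside Hba-a2 at 1.76 and 0.0181. The beta globin gene Hbb-bs, another gene of red blood cells, ran from 16.0 to 34.9 CPM over the BALB/c mice and up to 53.2 CPM over the NOD.H-2b mice, with overlap, and the part of blood in the globin values was not tested.

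With a member added to its copy, most pairs still differed between the strains by column sum. There, 6 of the 12 sums were higher in every NOD.H-2b mouse, 3 were higher in every BALB/c mouse and 3 overlapped. By TMM the counts were 3, 3 and 6, by size factors 4, 3 and 5, and the pairs with Rpl26, Atp6v0c, Eef1g and Hba-a1 were among those that overlapped by TMM. AK157302 and Isca1, which makes iron-sulfur clusters, overlapped under each scaling, with sums of 44.1 ± 3.32 and 42.3 ± 2.45 CPM. Tmem181b-ps, the copy of Tmem181c-ps, was itself lower in NOD.H-2b (28.2 and 15.4 CPM), and the sums of that pair were 44.4 and 15.6 CPM. The share of 75-base windows without a difference, again for single reads and not read pairs, ran from 10.7% (Gm6475 and Cd2ap) to 83.8% (Hba-a2 and Hba-a1). This range is over the copies that were not members. How the authors' counting treated reads with several matches is not given in the sources used here, so members with close copies are uncertain, and whether reads of the strains were placed differently between the copies was not tested.

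**Figure D2:**
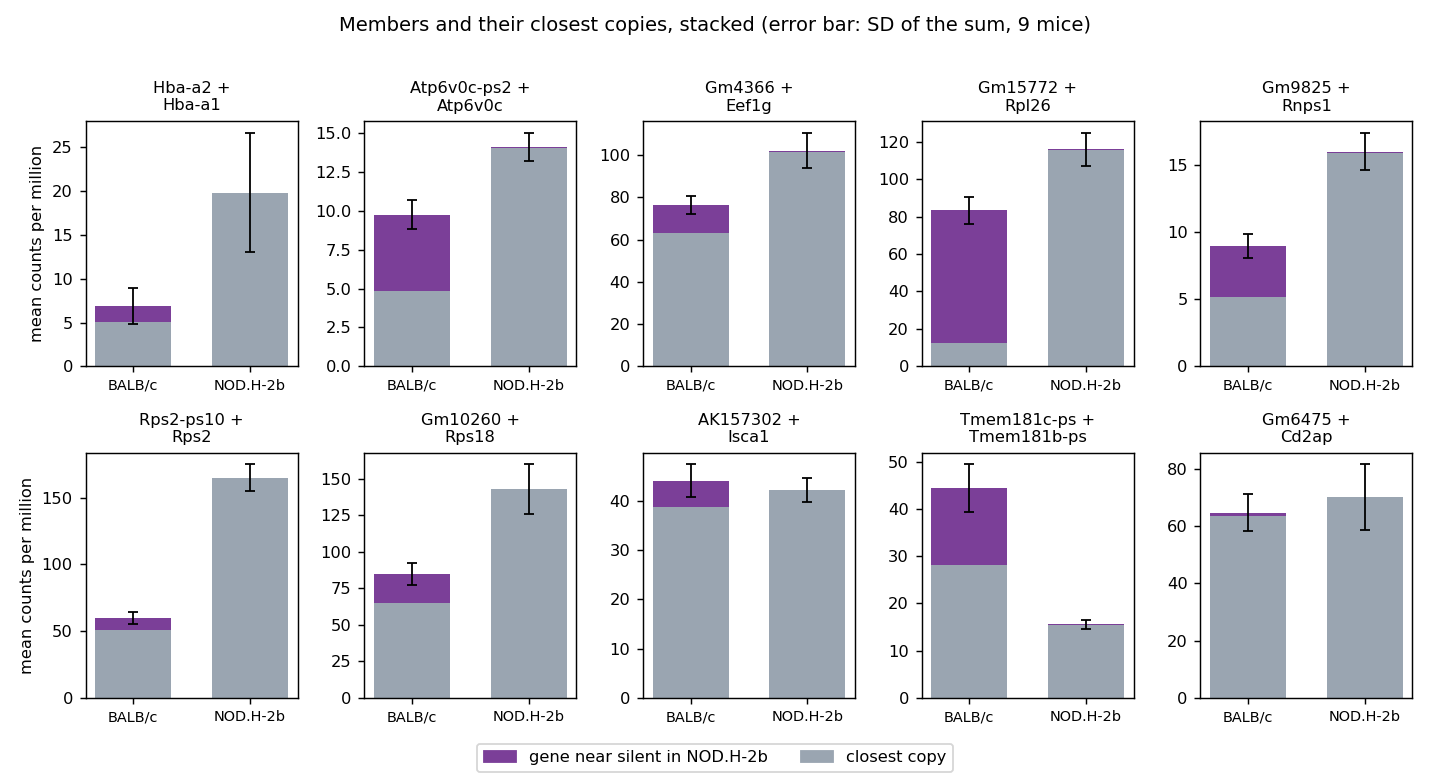
Mean CPM of 10 members (purple) stacked on their closest copy (grey) in 9 BALB/c and 9 NOD.H-2b mice, with the SD of the sum as error bar. For 7 pairs the copy was higher in every NOD.H-2b mouse than in any BALB/c mouse, such as 12.3 against 116 CPM on average for Rpl26, and Tmem181b-ps was lower in every one.

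Gm25939, the snRNA gene (chromosome 1, 72255008 to 72255198), had 14 other genes matching it at that identity. Its level was 33.9, 39.6 and 57.1 CPM in BALB/c and 0.607, 0.753 and 1.29 CPM in NOD.H-2b, and its best match Gm23444 had at most 0.0198 CPM in any mouse. Another copy, Gm25813, which is 98.4% identical and was named after its values were seen, had at most 0.0737 CPM in any BALB/c mouse and 1.98 to 4.58 CPM in NOD.H-2b. Small nuclear RNAs are multicopy genes, so the locus of origin of these reads is uncertain.

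The remaining members were lower in level or had no close copy. Gm12202, an unprocessed pseudogene whose best match was Rapgef2 at 84.8% identity, had 14.8, 19.2 and 21.5 CPM as lowest, median and highest over BALB/c, and 0.0978, 0.243 and 0.349 over NOD.H-2b. The pseudogene 9030619P08Rik, nearest to the neutrophil surface gene Ly6g at 77.2% identity, had 0.899, 1.46 and 3.60 CPM, and NOD.H-2b mice had at most 0.106. Gm6475, a processed pseudogene of Cd2ap, had 0.68, 0.979 and 1.30 CPM over BALB/c, with 3 of the 9 NOD.H-2b mice at 0. The processed pseudogene Gm6222 on chromosome X ran from 1.76 to 2.12 CPM across BALB/c and from 0.0196 to 0.159 CPM across NOD.H-2b.

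By position, the members formed 27 loci on 15 chromosomes when those within 1 Mb of each other were joined. Clusters held 6 of the 31 members (19.4%), as 2 groups of 3, while 3.47% of the other genes at the floor had a member within 1 Mb. The same 6 members were joined by a window of 0.5 or 2 Mb. Chromosomes 17 and 6 held the most members, 6 (19.4%) and 5 (16.1%), against 4.94% and 5.08% of the genes at the floor. A total of 14 members overlapped another annotated gene, 6 of them in exons, and the same share over the genes at the floor was not computed. The strand setting of the counting is not given, so it is not known whether reads in overlapping exons were told apart.

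The chromosome 6 cluster spanned Gm34224, Gm34314 and Gm5886 from 133597285 to 133767404. Of the 7 other genes within 500 kb that averaged at least 0.1 CPM in a strain, 2 were higher in every BALB/c mouse, 3 were higher in every NOD.H-2b mouse and 2 overlapped. For the counts around this and the next loci, the shares among genes at the floor of 0.5 CPM were 4.57% higher in every BALB/c mouse and 21.2% higher in every NOD.H-2b mouse, though these loci also include genes under that floor. Both of the first kind were unprocessed pseudogenes lying before the cluster. Gm44239 had 1.79 ± 0.329 CPM in BALB/c, against 0.017 ± 0.0453 for NOD.H-2b and missed the ratio limit, and Gm34149, named after its values were seen, had 0.331 and 0.015 CPM. The transcription factor gene Etv6, the nearest gene tested on the far side, was at 48.0 ± 4.38 and 60.3 ± 6.22 CPM.

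The chromosome 17 cluster lay in the H2 region and held Gm11127 (36055816 to 36058371), Gm10499 (36141758 to 36145923) and Gm8909 (36164443 to 36168537), all on the minus strand. NOD.H-2b carries the H2b haplotype in a segment of the MHC, and the ends of that segment are not given in the sources used here. The H2 region was taken from the first to the last gene with an H2- symbol (33974659 to 37483552), and 3 of its 99 genes at the floor were members. Those 99 include genes with H2- symbols, which could not be members. Of these, H2-Ea-ps and H2-Q1 met the values of the rule and were left out by name, so the share is understated. The closest transcripts of Gm8909 and Gm10499 were those of the class I genes H2-D1 (88.9% identical) and H2-Q4 (85.9%), which present peptides to T cells. These class I genes were higher in NOD.H-2b, at 136 and 441 CPM for H2-D1 and at 11.4 and 57.0 CPM for H2-Q4. Gm10499 had 3.95, 5.04 and 7.39 CPM in BALB/c as lowest, median and highest and at most 0.119 in NOD.H-2b. Gm8909 had 1.68, 2.12 and 3.43 CPM over BALB/c, against a highest NOD.H-2b value of 0.0678, and Gm11127 had 0.679, 1.05 and 2.01 CPM and at most 0.0793. Of the 33 other genes around them, 14 were higher in every NOD.H-2b mouse (background 21.2%), 1 was higher in every BALB/c mouse (background 4.57%) and 18 overlapped. Gm20478, which overlaps exons of Gm8909 on the other strand, had 0.458 and 0.0679 CPM. Whether the counting told reads of their shared bases apart is not known. Class I sequences differ much between haplotypes. The H2b haplotype of NOD.H-2b comes from a C57BL strain, and the reference genome is also of a C57BL strain. Where that segment reaches, reads can therefore match the reference better in NOD.H-2b than in BALB/c. The mapping of class I sequences in these libraries, and its part in the values of Gm11127, Gm10499 and Gm8909, was not tested.

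Around Gm1330, 3 of 7 other genes were higher in every BALB/c mouse (background 4.57%) and none was higher in every NOD.H-2b mouse. Gm14129, an unprocessed pseudogene whose transcript matched 210 bases of Gm1330 at 83.8% identity, had 73.2 ± 54.0 CPM in BALB/c, against 0.785 ± 0.868 for NOD.H-2b. Gm10750 had 0.351 CPM in BALB/c and no count in NOD.H-2b. The long noncoding RNA gene Gm14135, named after its values were seen, had 10484 CPM in BALB/c, against 1048 ± 911 CPM for NOD.H-2b. Cst3, the cystatin C gene on the other side, overlapped between the strains, with 49.5 and 67.1 CPM.

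**Figure D3:**
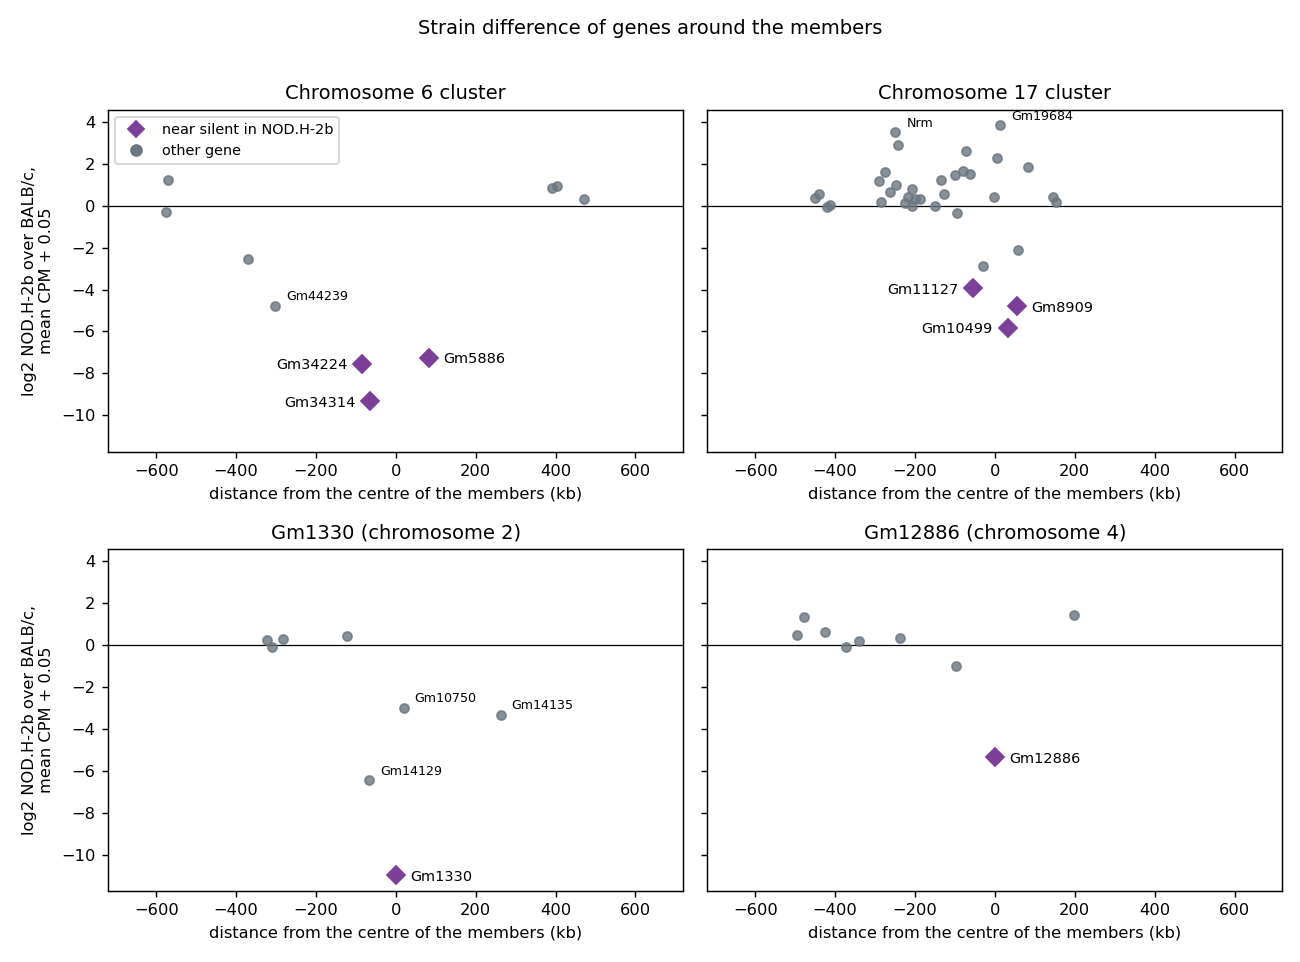
Log2 ratio of the NOD.H-2b to the BALB/c mean CPM (plus 0.05) against distance in kb for genes averaging at least 0.1 CPM within 500 kb of the members of 4 loci; diamonds are genes near silent in NOD.H-2b and grey points other genes. Around Gm1330 3 other genes fall under -3, whereas Gm12886 lies between Gm12888, under 0, and Gm12887, at 1.45.

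The genes beside Gm12886 showed that near relatives in a row differed in opposite directions. Gm12888, 87.4% identical to Gm12886 in transcript, had 8095 CPM in BALB/c, against 4060 for NOD.H-2b, and Gm12887 had 108 and 296 CPM. In the fit over 18 mice the log2 change from BALB/c to NOD.H-2b was -1.26 ± 0.07 (SE) for Gm12888 (edgeR, FDR 1.7e-11) and 1.18 ± 0.109 for Gm12887 (FDR 2.35e-07). The 250 bases before the RefSeq start of each gene (build GRCm38.p6, minus strand, 5′ to 3′) are printed because these 3 related neighbours differed in strain pattern. Capitals mark TATAAA, the only motif searched, on the given strand. Gm12886 lies at chr4:121423100-121423349, Gm12887 at chr4:121622126-121622375 and Gm12888 at chr4:121324918-121325167.
Gm12886: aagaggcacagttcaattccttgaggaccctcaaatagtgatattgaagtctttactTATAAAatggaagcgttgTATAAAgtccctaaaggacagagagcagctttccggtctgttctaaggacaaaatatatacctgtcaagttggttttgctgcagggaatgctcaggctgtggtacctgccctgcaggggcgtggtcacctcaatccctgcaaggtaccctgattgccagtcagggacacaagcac
Gm12887: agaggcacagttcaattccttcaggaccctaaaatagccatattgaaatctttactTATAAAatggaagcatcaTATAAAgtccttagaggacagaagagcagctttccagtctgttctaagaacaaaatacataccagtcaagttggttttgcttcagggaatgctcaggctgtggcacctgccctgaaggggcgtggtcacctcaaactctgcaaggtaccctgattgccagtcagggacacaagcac
Gm12888: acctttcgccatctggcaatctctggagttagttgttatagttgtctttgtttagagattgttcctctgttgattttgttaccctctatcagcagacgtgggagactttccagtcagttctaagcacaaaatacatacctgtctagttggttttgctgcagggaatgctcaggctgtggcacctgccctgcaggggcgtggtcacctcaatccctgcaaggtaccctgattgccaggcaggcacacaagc

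The promoters of Gm12886 and Gm12887 were 92.4% identical over 249 aligned bases, with 19 mismatches, and both held 2 matches to TATAAA. Gm12888 held none and was 75.1% identical to Gm12886. The motif was found in 7.59% of the 32851 promoters listed, and in 4 of the 12 members with an entry (Gm12886, Gm10499, Gm8909 and Apobec2). The first share counts promoters and the second counts genes with a match in any entry, so they are not directly comparable. The motif matches are of letters in the reference strain, and the promoters of the studied strains were not analysed here.

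The nearest tested gene that was not a member was compared between strains on each side of each member. Near-silent genes that met the rule were members, so this comparison cannot tell whether surrounding genes shared the near silence. It gives how often the remaining neighbours were called at 2-fold or more, a smaller difference than the rule asked for. Members were passed over, as were genes whose symbol in the deposited counts had a left-out start. A neighbour was thus not always the adjacent gene, and H2-T-ps, so named in the annotation, was kept as a neighbour of Gm11127. A gene was a neighbour only if its own values failed the rule, and Gm44239 was one because it missed the ratio limit. Fold changes from these fits are relative to TMM scaling. Of 55 such neighbours, 22 (40%) were called in the strain comparison averaged over the 3 ages (edgeR, FDR under 0.05 and at least 2-fold), beside 22.7% of all 19086 tested genes that were not members. In NOD.H-2b 13 neighbours (23.6%) were lower and 9 (16.4%) higher, where 5.04% and 17.7% of all non-members were. Gm12888, Ccdc93 and Gm44239 were among the lower ones with the smallest p.

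Ccdc93, a subunit gene of an endosomal sorting complex, lies 3382 bases from Htr5b and had 147 ± 15.0 CPM in BALB/c, against 79.0 ± 8.93 for NOD.H-2b (log2 change -1.16 ± 0.0641, FDR 3.48e-11). Among higher neighbours, Gm19684 beside Gm10499 rose from 0.00407 to 0.72 CPM (FDR 1.18e-09). D130040H23Rik, the neighbour of Lzts1, rose from 0.739 to 4.17 CPM (FDR 1.24e-09). Xylt1, that of Gm4366, rose from 1.90 to 10.0 CPM (FDR 3.44e-09) and Gm5086, that of Gm10260, from 0.192 to 0.907 CPM (FDR 2.12e-07). D130040H23Rik, Xylt1 and Gm5086 lay 86855, 555128 and 176076 bases from these members, against a median gap of 19.0 kb over all neighbours. The tested genes on the sides of Uox, Rpf1 and Prkacb, were not called, with log2 changes of -0.07 ± 0.0455 and 0.11 ± 0.0736 (FDR 0.164 and 0.212). Dnase2b, which overlaps Uox on the other strand, averaged 0.0836 CPM over BALB/c and had no count in NOD.H-2b.

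With age, 1 member was called in BALB/c. All 31 passed the low-count filter there. From 2M to 4M 1 member was called (edgeR, FDR under 0.05 and at least 2-fold), where 2.37% of 16639 genes were (2.07% higher and 0.3% lower). The same member was called from 2M to 6M, where 1.68% of genes were (1.57% higher and 0.115% lower), and none from 4M to 6M (background 0.0361%, with 0.018% in each direction). In that last comparison 9 members had an unadjusted p under 0.05. DESeq2 also called 0, with 11 at an unadjusted p under 0.05 and no adjusted p for 9 of the 31. The median log2 change of the members was 0.03, -0.03 and -0.03 for 2M to 4M, 4M to 6M and 2M to 6M, close to the values of all genes (0.00, -0.00 and 0.01).

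The member that changed was Gm12886. Its 3 mice at 2M had 712, 719 and 759 CPM, those at 4M 1992, 1776 and 1911 CPM, and those at 6M 1730, 1982 and 1461 CPM. Every 4M and 6M mouse lay above every 2M mouse. The log2 change was 1.33 ± 0.0573 (SE) from 2M to 4M (FDR 2.82e-08) and 1.28 ± 0.0864 from 2M to 6M (FDR 5.95e-05). In NOD.H-2b its means were 24.5 ± 4.70, 41.4 ± 23.1 and 39.8 ± 16.9 CPM at 2M, 4M and 6M (SD, n = 3), and the log2 changes of 0.80 ± 0.474 and 0.57 ± 0.449 from 2M did not pass (FDR 0.321 and 0.371).

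With no limit on the fold change, 7 members passed in BALB/c between 2M and 4M, and the chromosome 6 genes were among those that fell (11.1% of genes passed on this rule). Gm34224 went from 3740 ± 78.0 CPM at 2M to 2857 ± 199 at 4M, a log2 change of -0.43 ± 0.0456 (FDR 0.000105). Gm34314 went from 137 ± 8.92 to 90.4 ± 13.8 CPM (-0.65 ± 0.126, FDR 0.0287) and Gm5886 from 14.0 ± 3.75 to 8.38 ± 0.557 CPM (-0.78 ± 0.175, FDR 0.0338). For each of these genes the 3 mice at 4M lay under the 3 mice at 2M. Whether reads are shared among the 3 genes was not tested.

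Smaller changes in BALB/c passed for a few others. Apobec2 rose from 0.864 ± 0.0421 CPM at 2M to 1.76 ± 0.453 at 4M (log2 change 0.98 ± 0.229, FDR 0.0171), just under the fold limit. Gm10499 and Gm15772 rose by 0.41 ± 0.122 and 0.18 ± 0.0455 on the log2 scale (FDR 0.0482 and 0.0265). From 2M to 6M, where 5.61% of genes passed on this rule, Lypd1 fell from 14.2 ± 1.61 to 9.26 ± 0.914 CPM (-0.57 ± 0.0976, FDR 0.00694) and Dpf1 rose from 3.56 ± 0.692 to 6.35 ± 0.295 CPM (0.88 ± 0.137, FDR 0.00388), with no overlap of the ages for either gene. In that comparison 4 members passed, the others being Gm12886 and Gm34224 (-0.31 ± 0.0531, FDR 0.00708). Gm25939 fell by 0.51 ± 0.0632 from 4M to 6M (FDR 0.00845), where 0.307% of genes passed.

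**Figure D4:**
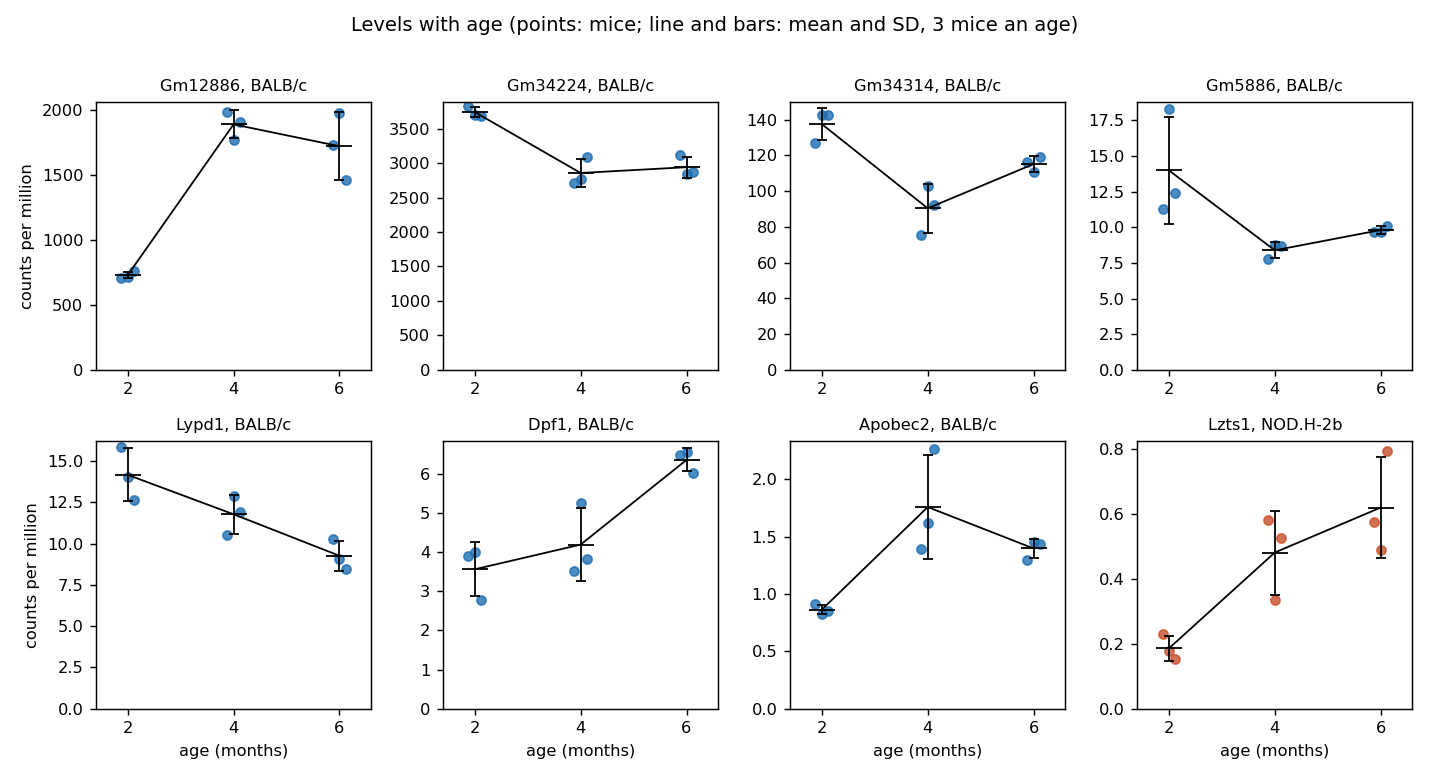
CPM against age in months, with a point for each mouse and the mean and SD of 3 mice in black, for 7 genes in BALB/c and Lzts1 in NOD.H-2b. Gm12886 goes from 730 CPM at 2M to 1893 at 4M, the 3 chromosome 6 genes are lower at 4M than at 2M, and Lzts1 in NOD.H-2b goes from 0.186 CPM at 2M to 0.619 at 6M.

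In NOD.H-2b only 9 members passed the low-count filter in the age comparisons, and for the other 22 no test of age could be made on the filtered table. The median log2 change of these 9 was 0.66 from 2M to 4M, 0.40 from 2M to 6M and -0.20 from 4M to 6M, beside 0.01, -0.01 and 0.01 for all genes tested. From 2M to 4M 8 of the 9 had a change above 0, though 1 alone passed the test. The filter used the counts of the same mice, so a member near its limit could pass through the age where it was higher. The medians and the count of 8 therefore give no result on the members as a set. Lzts1 was the single member called. Its levels were 0.229, 0.177 and 0.152 CPM at 2M, 0.582, 0.335 and 0.525 at 4M, and 0.576, 0.489 and 0.793 at 6M, so every older mouse lay above every 2M mouse. The log2 change was 1.38 ± 0.391 from 2M to 4M (FDR 0.0448), where 6.6% of genes were called (5.97% higher and 0.625% lower), and 1.57 ± 0.372 from 2M to 6M (FDR 0.0104), where 12.5% were (10.9% higher and 1.55% lower). The first call was lost without any 1 of the 6 mice, with the replicate number as a block and by DESeq2 (adjusted p 0.0645), whereas the second held in each of these. From 4M to 6M no member was called (background 0.00555%), none had an unadjusted p under 0.05, and DESeq2 called 0 but gave no adjusted p for 24 of the 29 members it tested. In BALB/c Lzts1 varied between mice of 1 age, from 22.1 to 45.7 CPM at 2M, and no age comparison passed. The summed CPM of the 4 B cell genes also rose in NOD.H-2b, from 0.774 to 16.7 over the 2M mice to 74.9 to 183 at 4M and 135 to 303 at 6M, and its part in the Lzts1 change was not tested. Even the highest NOD.H-2b mouse, at 0.793 CPM, lay 24.0-fold under the lowest BALB/c mouse.

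By the rule the members were low in NOD.H-2b at every age, and the size of the difference varied for some. The ratio of BALB/c to NOD.H-2b means at 2M, 4M and 6M was 3170, 1988 and 2508 for Gm1330, 395, 291 and 93.5 for Gm34224, and 29.7, 45.7 and 43.4 for Gm12886. It was 236, 116 and 31.1 for Lypd1 and 195, 52.0 and 62.1 for Lzts1. The Lypd1 ratios rest on 11, 17 and 49 NOD.H-2b counts, with a 6M mean of 0.298 ± 0.226 CPM. Its BALB/c mean also fell, from 14.2 CPM at 2M to 9.26 at 6M. The 6M fold of Gm34224 rests on the second NOD.H-2b mouse of that age, at 64.99 CPM beside 10.5 and 18.9 for the others, and was 200.4 without it. Over all members, the median member stood between 0.417% and 1.58% of its BALB/c mean in each of the 9 mice.

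Within BALB/c the 9 mice ranged more widely for the members than for all genes at the floor. The ratio of the highest to the lowest of the 9 mice had a median of 1.83 over the members, from 1.21 (Gm6222) to 4.01 (9030619P08Rik), and of 1.399 over the 12876 genes. This ratio takes in changes with age, and the rule itself used the lowest BALB/c CPM. The members also sat lower, with a median of 5.81 against 10.6 CPM, and the part of these in the wider range was not tested. At the limit of the rule, 9030619P08Rik, Gm11127 and Gm6475 were just inside, with the lowest BALB/c at 8.52, 8.57 and 9.66 times the highest NOD.H-2b value. Gm44239, Hist1h3f and Gm20568 were just outside, at 7.44, 7.13 and 6.86 times. At the floor, Gm11127, Gm6475 and Apobec2 were just inside, with lowest BALB/c values of 0.679, 0.68 and 0.829 CPM, and Amd-ps4, Gm9522 and Gm11795 just outside, at 0.491, 0.379 and 0.365 CPM.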

How the data were processed

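The deposited table holds raw counts per gene. Per the labels, the authors depleted ribosomal RNA, trimmed the paired reads of 75 bases (cutadapt), aligned to GRCm38 (STAR) and counted per gene (HTSeq). CPM was computed by column sum. Strand setting, annotation release and handling of multiply matching reads are not given in the sources used here. A table of log2 normalized values, also deposited, was not used.

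Symbols, classes and coordinates came from GENCODE M21 (54079 of 54232 IDs matched). Ages were compared within a strain on 6 mice, and strains on all 18, with edgeR 4.0.16 in R 4.3.3 (TMM, filterByExpr, robust quasi-likelihood test, Benjamini-Hochberg over all genes). A call required FDR under 0.05 with a 2-fold change or more. Copies were found with blastn 2.17.0 over at least 100 aligned bases. DESeq2 1.42.0, other scalings, limits and filters, the replicate number as a block and leaving out each mouse were alternatives.

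Members, lists and tests were chosen with earlier results of these data known. Named genes were the 15 highest members in BALB/c, the 12 highest protein-coding ones, clusters of 3, members called with age, the 3 nearest each limit, the 3 highest in NOD.H-2b and up to 4 called neighbours each way by p; others were named after their values were seen. A called neighbour is not reported here. Same-numbered mice did not deviate together (r from -0.30 to 0.30 over 18 pairs), so mice were not paired.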

Additional observations from a re-analysis of the deposited data

Results flagged for a closer look

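Gm25939, the snRNA gene, changed in opposite directions between 2M and 6M in the strains. In BALB/c the 3 mice at 6M (33.9 to 34.3 CPM) lay under the 3 mice at 2M (35.2 to 45.8 CPM), a log2 change of the means of -0.24. In NOD.H-2b the 6M mice (0.753 to 1.03 CPM) lay above the 2M mice (0.607 to 0.709 CPM), a log2 change of 0.38. The changes differed by 0.62 on the log2 scale, and this difference was not tested. By TMM factors the ranges of the ages overlapped in both strains (36.99 to 39.3 and 39.1 to 49.8 in BALB/c, 0.67 to 0.797 and 0.569 to 0.677 in NOD.H-2b, 6M first). Neither strain passed the age comparison from 2M to 6M.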

How the results depend on the processing

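Of 57 alternatives other than leaving out a mouse, 48 kept their count within 1.5 times of the value reported. The number of members was 55 with a ratio limit of 4 in place of 8, of which 31 were protein-coding, and stayed between 22 and 38 under the other scalings and limits. Without the fold limit, 7 members were called from 2M to 4M in BALB/c, 1 from 4M to 6M and 4 from 2M to 6M. In NOD.H-2b the call of Lzts1 from 2M to 4M was lost with no filter on low counts, by DESeq2 and with the replicate block (0 members each), and 2 members, Lzts1 and Gm10260, were called from 2M to 6M with no filter. The replicate block changed no other count of members, and the count of neighbours was 22 with the block too. The causes were not tested.

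Leaving out each mouse gave 31 to 34 members, with 15 to 16 protein-coding, and 20 to 23 neighbours. In BALB/c it gave 1 to 3 members called from 2M to 4M, 0 to 0 from 4M to 6M and 1 to 1 from 2M to 6M. In that first comparison Apobec2 was added without the first 2M or the first 4M mouse, and Apobec2 and 9030619P08Rik without the second 4M mouse. In NOD.H-2b it gave 0 to 0 from 2M to 4M, 0 to 0 from 4M to 6M and 1 to 2 from 2M to 6M, where Lypd1 was added without the second 6M mouse. Depth limits members at a few counts in NOD.H-2b, whose folds are loose or bounds. Shares of gene classes, the ratios of means without a NOD.H-2b mouse and the spread by TMM (median 1.69) were alternatives chosen after seeing the data.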
